A study of Mus musculus with 3 samples.

Results

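The set described here consisted of the neutrophil-recruiting chemokines Cxcl1, Cxcl2, Cxcl3 and Cxcl5, their shared receptor gene Cxcr2, the granulocyte colony-stimulating factor (G-CSF) gene Csf3 and its receptor gene Csf3r. These 7 genes, taken by name from the 32285 genes of the deposited matrices, were all present and all had at least 1 unique molecular identifier (UMI, a tag that marks 1 captured transcript) in each library. The study asked how chronic ultraviolet light ages mouse skin and whether topical inhibition of the Janus kinases JAK1 and JAK2 changes that course. Full-thickness dorsal skin of wild type C57BL/6J mice was dissociated into single cells and profiled by droplet RNA sequencing, with 1 library for each of 3 conditions. The mice were labelled female and 8 weeks old. The study gives that age for the mice as purchased, and the age at harvest was not given. The library CON came from unirradiated controls. The library UV came from mice irradiated on alternate days over 12 weeks with UVA (0.60 mW/cm2) plus UVB (3.5 mW/cm2). The library Rux came from mice irradiated in the same way whose skin received a 1.5% ruxolitinib ointment after each exposure. Skin was taken 24 h after the last exposure, and the study describes vehicle as given to the control and UV mice. The number of mice behind each library was not given in the sources used here. With 1 library per condition no difference below has a replicate check, no test between conditions was possible, and all intervals are 95% intervals for counting error only.

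Chemokines of this family are small secreted proteins that bind glycosaminoglycans on vessel walls and in matrix and draw neutrophils out of the blood through the receptor CXCR2. G-CSF acts at a distance: it drives granulopoiesis in bone marrow and the release of mature neutrophils, which carry its receptor. In skin both kinds of signal are known products of stromal, endothelial and myeloid cells exposed to interleukin-1, interleukin-17 or tumour necrosis factor, and transcription of the chemokine genes depends on the factor NF-kB.

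In the GRCm38 annotation the 4 ligand genes formed a cluster on the + strand of chromosome 5, with Cxcl5 at 90759360-90761624, Cxcl3 at 90786103-90789600, Cxcl1 at 90891241-90893115 and Cxcl2 at 90903871-90905938. Cxcr2 lay on chromosome 1 at 74153989-74161246, Csf3 on chromosome 11 at 98701263-98703629 and Csf3r on chromosome 4 at 126024550-126044440, also on the + strand. The RefSeq promoter table held 5 of the 7 genes, and the stretches of 100 bases that end just before the earliest annotated start are shown for the 3 clustered ligand genes it held, because these genes were detected in the same cells. Capitals mark matches to the NF-kB consensus, searched on both strands, and to the TATA box TATAAA:

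Cxcl3, chr5:90786001-90786100, + strand: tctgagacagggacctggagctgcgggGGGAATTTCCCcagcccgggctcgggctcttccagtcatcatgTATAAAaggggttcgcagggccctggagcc

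Cxcl1, chr5:90891141-90891240, + strand: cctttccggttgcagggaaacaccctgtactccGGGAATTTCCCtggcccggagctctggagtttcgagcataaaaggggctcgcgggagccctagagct

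Cxcl2, chr5:90903771-90903870, + strand: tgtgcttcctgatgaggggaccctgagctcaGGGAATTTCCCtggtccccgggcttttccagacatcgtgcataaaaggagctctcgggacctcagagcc

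The 3 promoters carried the same palindromic NF-kB match, read on both strands as overlapping matches 1 base apart. It began 73 bases upstream of the RefSeq start in Cxcl3, 71 bases upstream in Cxcl1 and 97 bases upstream in Cxcl2. Among all 32851 RefSeq promoters of 300 bases, 8.46% held an NF-kB match, 13.6% held TATAAA and 7.81% held the AP-1 motif TGANTCA. Among the 5 member promoters the exact string TATAAA stood only in Cxcl3, 30 bases upstream of the start. The stretches shown for Cxcl1 and Cxcl2 hold CATAAA, 1 base different, which the search did not count. Csf3r had 1 NF-kB match 129 bases upstream, Cxcr2 had none, and none of the 5 promoters held the AP-1 motif. These matches describe letters in a window and not occupied sites. Cxcl2 and Cxcl3 are close paralogs, and their annotated transcripts shared 85 words of 91 bases. No such word was shared between the last 500 bases of their transcripts, where a 3′ library takes its reads. Whether a shared word lay in the last 500 bases of only 1 of these genes was not tested.

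The matrices held 13170, 12411 and 11287 cells in CON, UV and Rux, of which 10777, 10231 and 9299 were kept after filtering on quality and removal of likely doublets. Median depth per kept cell was 7549, 7669 and 9438 UMIs, so Rux was the deepest library per cell, and any pair of libraries shared 28 to 50 cell barcodes. The labels say female, yet the Y-linked gene Ddx3y stood between 110 and 121 CPM (UMIs of the gene scaled to a fixed total of 1e6) in every library and Xist between 0.0922 and 0.119 CPM. Clusters were named "like" a cell type from its markers, and 7 of 46 clusters, with 1517, 1302 and 838 cells, stayed unnamed. The largest of them, cluster 3, with 586, 553 and 449 cells, scored highest for fibroblast markers. It stayed unnamed for its low UMIs and the lack of a marker among its leading genes. Fibroblast-like (FB-like) cells were the largest class of UV and Rux, with 3387 cells in CON, 5117 in UV and 5013 in Rux. All 7 FB markers and all 6 lymphatic endothelial (LEC) and 6 vascular endothelial (VEC) markers were present in the matching class of every library. Neutrophil-like (NEU-like) cells numbered 50 in CON, 21 in UV and 222 in Rux, which was 0.464%, 0.205% and 2.39% of kept cells. S100a8 and S100a9, the neutrophil calprotectin genes, were abundant in them in all 3 libraries, whereas the defining markers Ly6g and Ngp had 1 UMI each in CON, none in UV, and 25 and 106 in Rux.

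Over all kept cells, the 4 ligand genes were lowest in CON and highest in Rux, Csf3 took the reverse order, and both receptor genes were lowest in UV and highest in Rux. Cxcl1 stood at 936 CPM in CON, 1552 in UV and 2359 in Rux. Cxcl2 stood at 346, 667 and 1435 CPM in the same order. Cxcl3, the rarest of the 3, stood at 9.40, 27.2 and 92.5 CPM. Each step was larger for Cxcl3 than for Cxcl2 and larger for Cxcl2 than for Cxcl1, with log2 ratios of Rux over CON of 3.30 (3.22 to 3.38), 2.05 (2.04 to 2.07) and 1.33 (1.32 to 1.34). Cxcl5 stood at 6.60, 8.52 and 19.9 CPM, and Csf3 at 161, 119 and 59.5 CPM. Cxcr2 had 120, 38 and 258 UMIs in all, and Csf3r had 212, 104 and 753. Such sums cannot tell a larger number of producing cells from more RNA in each of them. When the CPM of each class was averaged with the class shares of CON, the UV over CON log2 ratio was -0.09 for Cxcl1 in place of 0.73, 0.30 for Cxcl2 in place of 0.95 and 0.93 for Cxcl3 in place of 1.54. The Rux over UV ratio stayed above 0 under the same weights, at 0.59 for Cxcl1, 0.65 for Cxcl2, 1.18 for Cxcl3 and 1.18 for Cxcl5. Csf3 stayed below 0 at -0.61 for UV over CON and -0.48 for Rux over UV.

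Counted at a 2-fold ratio over all kept cells, and only for genes averaging 10 CPM or more in the pair of libraries, Cxcl3 was higher in UV than in CON out of 4 members tested, and none was lower. The same call was made for 3.27% of all genes tested in the higher and 1.42% in the lower direction. In Rux against UV, Cxcl2, Cxcl3 and Cxcl5 were 2-fold higher and Csf3 2-fold lower out of 5 tested, against 1.31% and 1.16% of all genes. The Csf3 ratio lay at the 2-fold limit, and the call was lost without doublet removal, under median-of-ratios scaling, with equal weight per cell and with class shares as in CON. In Rux against CON, Cxcl1, Cxcl2, Cxcl3 and Cxcl5 were higher and Csf3 lower, against 6.63% and 4.46% of all genes. Cxcr2 and Csf3r were below the level at which a gene was counted.

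**Figure D1:**
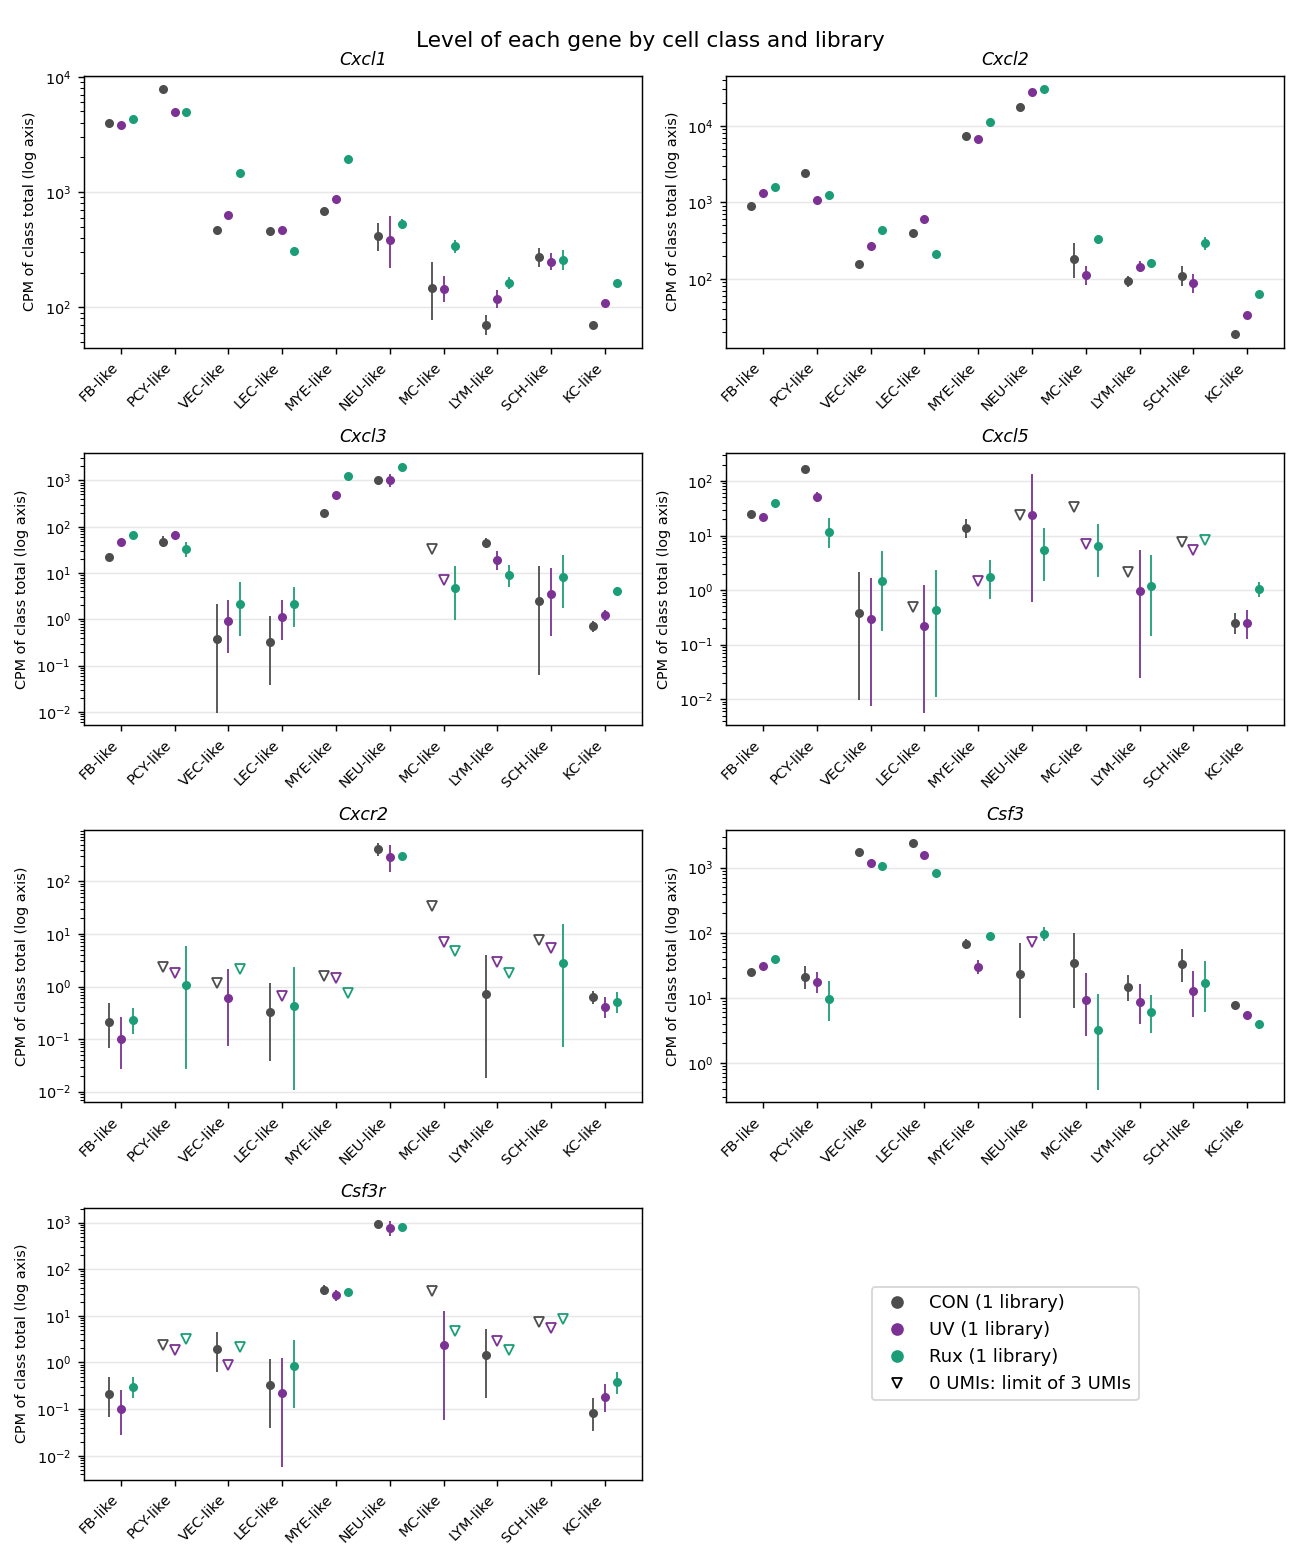
Level of each member gene in each library by cell class, on log axes of CPM, with 1 point per library, bars for the 95% counting interval and open triangles at the limit of 3 UMIs where no UMI was found (MC-like, mast cells; SCH-like, Schwann cells). Among the classes drawn, Cxcl1 was highest in PCY-like cells, a class named from pericyte markers but led by genes of contractile cells. Cxcl2 and Cxcl3 were highest in NEU-like and myeloid cells, Csf3 in endothelial cells, and both receptor genes in NEU-like cells.

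Cxcl1, the main CXCR2 ligand of stroma, was mostly a fibroblast transcript. FB-like cells held 71.3% of its UMIs in CON, 83.0% in UV and 87.9% in Rux. Its level within FB-like cells was 3965 CPM (3940 to 3991) in CON, 3821 (3802 to 3841) in UV and 4285 (4268 to 4302) in Rux. The unnamed cluster 3, outside this class, had Cxcl1 at 4312, 2769 and 4036 CPM. At a fixed depth of 2000 UMIs per cell, 71.2% of FB-like cells in CON, 72.1% in UV and 75.4% in Rux had a Cxcl1 UMI, and without thinning the shares were 82.7%, 85.2% and 91.9%. In lymphocyte-like (LYM-like) cells, which should lack the gene, the thinned shares were 13.6%, 21.1% and 28.8%, at median depths of 5405, 4923 and 5100 UMIs against 6171, 7363 and 9980 in FB-like cells. The make-up of this comparison class differed between libraries. Cluster 15, led by Il17a, had 137, 181 and 295 cells, and cluster 43, with Trdc and Trdv4 among its leading genes, had 93, 4 and 1. Keratinocyte-like (KC-like) cells, with 11.5%, 18.0% and 22.7%, did not stand above the LYM-like share in any library at this fixed depth, and their Cxcl1 level of 69.6, 109 and 163 CPM was close to the 70.5, 119 and 164 CPM of LYM-like cells. Per cell, without thinning, KC-like cells had more Cxcl1, with means of 1.65, 2.95 and 4.20 UMIs against 0.422, 0.665 and 0.916 in LYM-like cells, and some KC-like clusters had a higher level than LYM-like cells. Cluster 19, led by Il20ra, stood at 124 CPM (115 to 133) in CON, cluster 38, led by Fhod3, at 248 (231 to 267) in Rux, and cluster 45, led by genes of the cornified envelope, at 619 (452 to 829) in UV, from 15 cells. How much of the KC-like Cxcl1 was free RNA was not tested.

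Pericyte-like (PCY-like) cells came from cluster 17, led by Myh11, Lmod1 and Pln, with Acta2, Cnn1 and Tagln also among its leading genes. These are genes of contractile cells, and whether the cluster held pericytes or vascular smooth muscle cells was not tested. Cluster 29, led by the pericyte marker Rgs5, stayed unnamed and was not part of this class. Its Cxcl1, at 3649, 2144 and 3623 CPM, was below the FB-like level in each library. PCY-like cells had more Cxcl1 per UMI than FB-like cells, at 7808 CPM in CON, 4932 in UV and 4936 in Rux. They were lower in both irradiated libraries than in CON, with log2 ratios of -0.66 (-0.71 to -0.62) and -0.66 (-0.71 to -0.61). The summed level of 15 genes known to be induced by tissue dissociation, among them Fos, Jun and Egr1, was also highest in CON in PCY-like cells, at 21789 CPM against 15218 in UV and 17689 in Rux, and its part in the difference was not tested. VEC-like cells as a class ran in the other direction. Their Cxcl1 stood at 466, 629 and 1473 CPM, a log2 ratio of Rux over UV of 1.23 (1.14 to 1.32). Both VEC-like clusters had their highest value in Rux. Cluster 14, with the immunoglobulin gene Iglc2 ranked first and Sele, Selp and Vwf also among its leading genes, had 399, 545 and 1276 CPM. These came from 308, 235 and 114 cells. The cluster led by Gpihbp1 had 777, 757 and 1943 CPM, from 99, 238 and 67 cells, and was not higher in UV than in CON. For the class, the UV over CON log2 ratio of 0.43 was -0.01 at resolution 0.8. The part of cluster mix in it was not tested. LEC-like cells had less Cxcl1 in Rux than in UV, 311 against 467 CPM, a log2 ratio of -0.59 that turned to 0.15 without doublet removal. Myogenic progenitor-like cells stood at 5096, 2718 and 4186 CPM, from 156, 36 and 33 cells.

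Cxcl2, a CXCR2 ligand made by macrophages and neutrophils as well as stroma, had more than a single major source. FB-like cells held 43.0%, 67.5% and 54.1% of its UMIs, myeloid (MYE-like) cells 28.7%, 17.6% and 27.1%, and NEU-like cells 4.68%, 1.50% and 13.7%. Per UMI of the class the order was reversed, with NEU-like cells at 17802, 27993 and 30689 CPM, MYE-like cells at 7267, 6786 and 11084 CPM and FB-like cells at 884, 1337 and 1604 CPM. Every NEU-like cell of UV and Rux had a Cxcl2 UMI, from 21 and 222 cells. The ratio of Cxcl2 to Cxcl1 UMIs within a class separated these sources. It was 0.223, 0.350 and 0.374 in FB-like cells, 10.6, 7.74 and 5.78 in MYE-like cells, and 43.1 in CON and 58.1 in Rux NEU-like cells. In KC-like cells the ratio was 0.276, 0.310 and 0.385, and in LYM-like cells 1.31, 1.22 and 0.974. Over all kept cells it was 0.370, 0.430 and 0.608, so the LYM-like ratio was not that of the library as a whole.

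**Figure D2:**
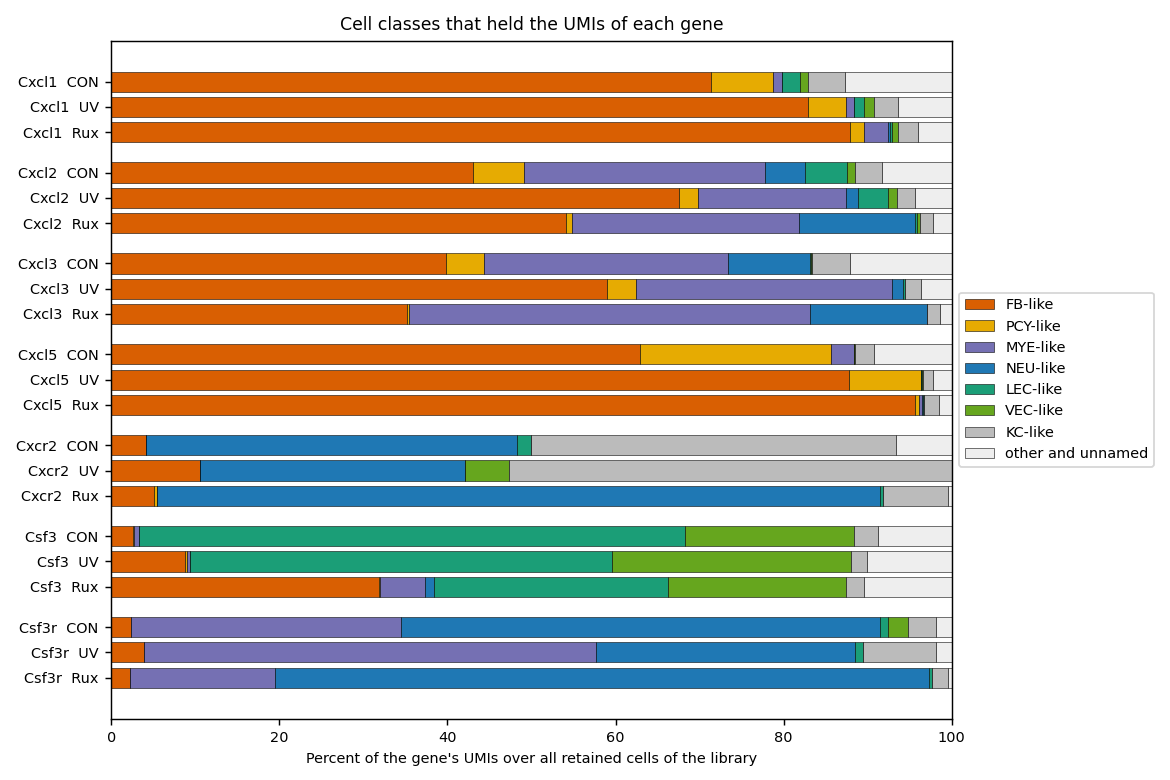
Share of each member gene's UMIs that came from each cell class, in percent, for the 3 libraries. FB-like cells dominated Cxcl1 and Cxcl5 in every library, and the Csf3 share of LEC-like cells was 64.9% in CON, 50.2% in UV and 27.8% in Rux.

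In FB-like cells Cxcl2 was higher in UV than in CON by 0.60 on the log2 scale (0.57 to 0.62) and higher in Rux than in UV by 0.26 (0.25 to 0.28). The thinned share of FB-like cells with a Cxcl2 UMI was 30.3% in CON, 39.6% in UV and 46.2% in Rux, against 9.05%, 13.7% and 20.3% of LYM-like cells. The Cxcl2 transcripts were concentrated: the 10% of FB-like cells with most held 76.6% of them in CON, 66.9% in UV and 60.7% in Rux. The same share for Cxcl1 was 47.7%, 46.8% and 41.4%. These shares used counts without thinning and tend to be higher for a gene found in fewer cells. Cells with Cxcl2 nearly always had Cxcl1 too, in 92.4%, 91.1% and 92.1% of thinned FB-like cells with a Cxcl2 UMI, against 61.9%, 59.7% and 61.1% of those without.

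MYE-like cells comprised 2 clusters whose mix differed between libraries. Cluster 20, with Ccl22, Mgl2 and the Langerhans cell gene Cd207 among its leading genes, had 204, 143 and 147 cells. Its highest-ranked genes were immunoglobulin genes and Jchain, which are plasma cell products, and these came from few cells: 8 in CON, 11 in UV and 1 in Rux had over 1% of their UMIs from such genes, at least 48.0% in each. Without these 20 cells the UV over CON log2 ratio of Cxcl2 in MYE-like cells was 0.00 in place of -0.10, and the Cxcl2 level of the remaining cells was 7678, 7697 and 11147 CPM. Cluster 21, led by the macrophage genes Chil3, Msr1 and Arg1, had 72, 97 and 301 cells. Cluster 21 held the higher levels of Cxcl2, at 9674 CPM in CON, 11575 in UV and 13999 in Rux against 6260, 3981 and 5428 CPM in cluster 20. It also held the higher Cxcl3, at 379, 1071 and 1786 CPM against 126, 134 and 241 CPM. Cxcl1 in cluster 21 stood at 673, 1516 and 2258 CPM, and in cluster 20 at 692, 502 and 1260 CPM. In the macrophage-led cluster all 3 ligands were thus lowest in CON and highest in Rux, whereas in the other cluster Cxcl1 and Cxcl2 were lowest in UV, with or without the immunoglobulin-rich cells.

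Cxcl3, the close paralog of Cxcl2, had the steepest differences between libraries among the ligand genes over all kept cells. MYE-like cells as a whole stood at 201 CPM (181 to 222) in CON, 480 (451 to 511) in UV and 1260 (1226 to 1295) in Rux. They held 29.1%, 30.5% and 47.7% of its UMIs, while FB-like cells held 39.8%, 59.0% and 35.2%. NEU-like cells stood at 998, 1002 and 1992 CPM, with 128, 42 and 1482 UMIs. The Rux over UV log2 ratio in NEU-like cells was 0.97 for Cxcl3 and 0.13 for Cxcl2, and without doublet removal both turned, to -0.39 and -0.45. In FB-like cells Cxcl3 was low, at 22.2, 47.7 and 67.3 CPM, and 1.69%, 3.55% and 5.08% of thinned cells had a UMI against 0.905%, 1.14% and 1.42% of LYM-like cells. The log2 ratio was 1.10 (0.96 to 1.24) for UV over CON and 0.50 (0.42 to 0.58) for Rux over UV. The first of these was -0.18 when FB-like subclusters were weighted as in CON.

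Cxcl5, a ligand typical of stroma and epithelium, came mainly from FB-like and PCY-like cells at low level. FB-like cells stood at 24.7, 22.2 and 39.3 CPM and held 62.9%, 87.8% and 95.7% of its UMIs. UV over CON was -0.15 with an interval that reached 0 (-0.31 to 0.00), and Rux over UV was 0.82 (0.71 to 0.94). In PCY-like cells the order was CON, UV, Rux, at 168, 51.5 and 11.9 CPM from 211, 85 and 11 UMIs. The Rux value there rested on 115 cells, and without doublet removal the Rux over UV ratio was 0.61 in place of -2.06. Stromal cells thus supplied nearly all Cxcl5 transcripts of Rux. KC-like cells had 0.250, 0.248 and 1.03 CPM.

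Of the 5 members counted in FB-like cells, Cxcl3 was 2-fold higher in UV than in CON and none was 2-fold lower, against 2.25% and 2.12% of all genes tested. In Rux against UV no member was 2-fold higher or lower, against 0.723% and 1.63% of all genes. In Rux against CON Cxcl3 was 2-fold higher and none was lower, against 2.18% and 3.51% of all genes. The median log2 ratio of all genes was -0.11 for UV over CON. Median-of-ratios scaling added 0.15 to each UV over CON ratio and 0.13 to each Rux over CON ratio, and Cxcl1 in UV over CON turned from -0.05 to 0.09 under it.

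Subclustering divided FB-like cells into 14 groups, and the ligands were unevenly spread among them. Cxcl1 was high in subcluster 3, led by Thbs4, Grm8 and Col8a1, at 12526 CPM in CON, 7316 in UV and 10648 in Rux, and in subcluster 5, led by the cartilage matrix gene Comp, at 12900, 6389 and 8065 CPM. Subcluster 0, led by Krt23, followed at 7455, 6634 and 7227 CPM and stood above subcluster 5 in UV. It was lowest in subcluster 13, led by Coch and Fmod, at 128, 190 and 213 CPM. Subcluster 0 held 5.14% of FB-like cells in CON, 19.7% in UV and 8.54% in Rux and had Cxcl2 at 2264, 2480 and 3064 CPM. Subcluster 2, led by Socs3, a target and inhibitor of JAK-STAT signalling, held 32.9% of FB-like cells in CON, 7.31% in UV and 0.399% in Rux, and its Cxcl2 was 481, 238 and 496 CPM.

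Within subclusters with at least 50 cells in both libraries, UV was higher than CON in 2 of 10 for Cxcl1, 4 of 10 for Cxcl2, 3 of 10 for Cxcl3, 4 of 10 for Cxcl5 and 1 of 10 for Csf3. Rux was higher than UV in 10 of 11 for Cxcl1, 11 of 11 for Cxcl2, 10 of 11 for Cxcl3, 7 of 11 for Cxcl5 and 3 of 11 for Csf3. These directions were taken after adding 0.5 UMI to each sum, with no minimum of UMIs. Some for Cxcl3, Cxcl5 and Csf3 therefore rest on few or no UMIs. In subcluster 8 Cxcl5 had 0 UMIs in CON and in UV and was counted as higher in UV. In subcluster 10 Cxcl3 had 0 UMIs in CON and 3 in UV and was counted as lower in UV. Weighting subclusters as in CON used only those with at least 20 cells in every library, which left out subcluster 11, described below. Subcluster 2, with 32.9% of FB-like cells in CON, entered for Rux from 20 cells. Under these weights the UV over CON log2 ratio of FB-like cells was -0.80 for Cxcl1, -0.42 for Cxcl2, -0.92 for Cxcl5 and -0.48 for Csf3. Cxcl2 was thus higher in UV than in CON over FB-like cells as a whole and lower under these weights. The subclusters are themselves defined by expression, and Zfp36, Cebpd and Egr1 are among the leading genes of subcluster 2. The dissociation-induced genes moved with the same contrast: their summed level in FB-like cells was 21858 CPM in CON, 11879 in UV and 12637 in Rux, and in subcluster 2 it was 35996, 30541 and 38430 CPM. The part of subcluster mix, of levels within subclusters and of dissociation in the result was not tested.

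Subcluster 11, led by the acute-phase genes Saa3, Hp and Lcn2, had 1 cell in CON, 16 in UV and 444 in Rux. In Rux it stood at 178 CPM for Cxcl3, 140 CPM for Cxcl5 and 127 CPM for Csf3. It was 8.86% of FB-like cells of that library, and held 37.4% of their Cxcl3 UMIs, 50.5% of their Cxcl5 UMIs and 45.9% of their Csf3 UMIs. Its share of Cxcl1 and Cxcl2 was smaller, at 16.5% and 16.5%. Without it, Rux FB-like cells stood at 49.0 CPM for Cxcl3, 22.6 for Cxcl5 and 24.7 for Csf3, and the Rux over UV log2 ratios were 0.04, 0.04 and -0.33 in place of 0.50, 0.82 and 0.33.

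**Figure D3:**
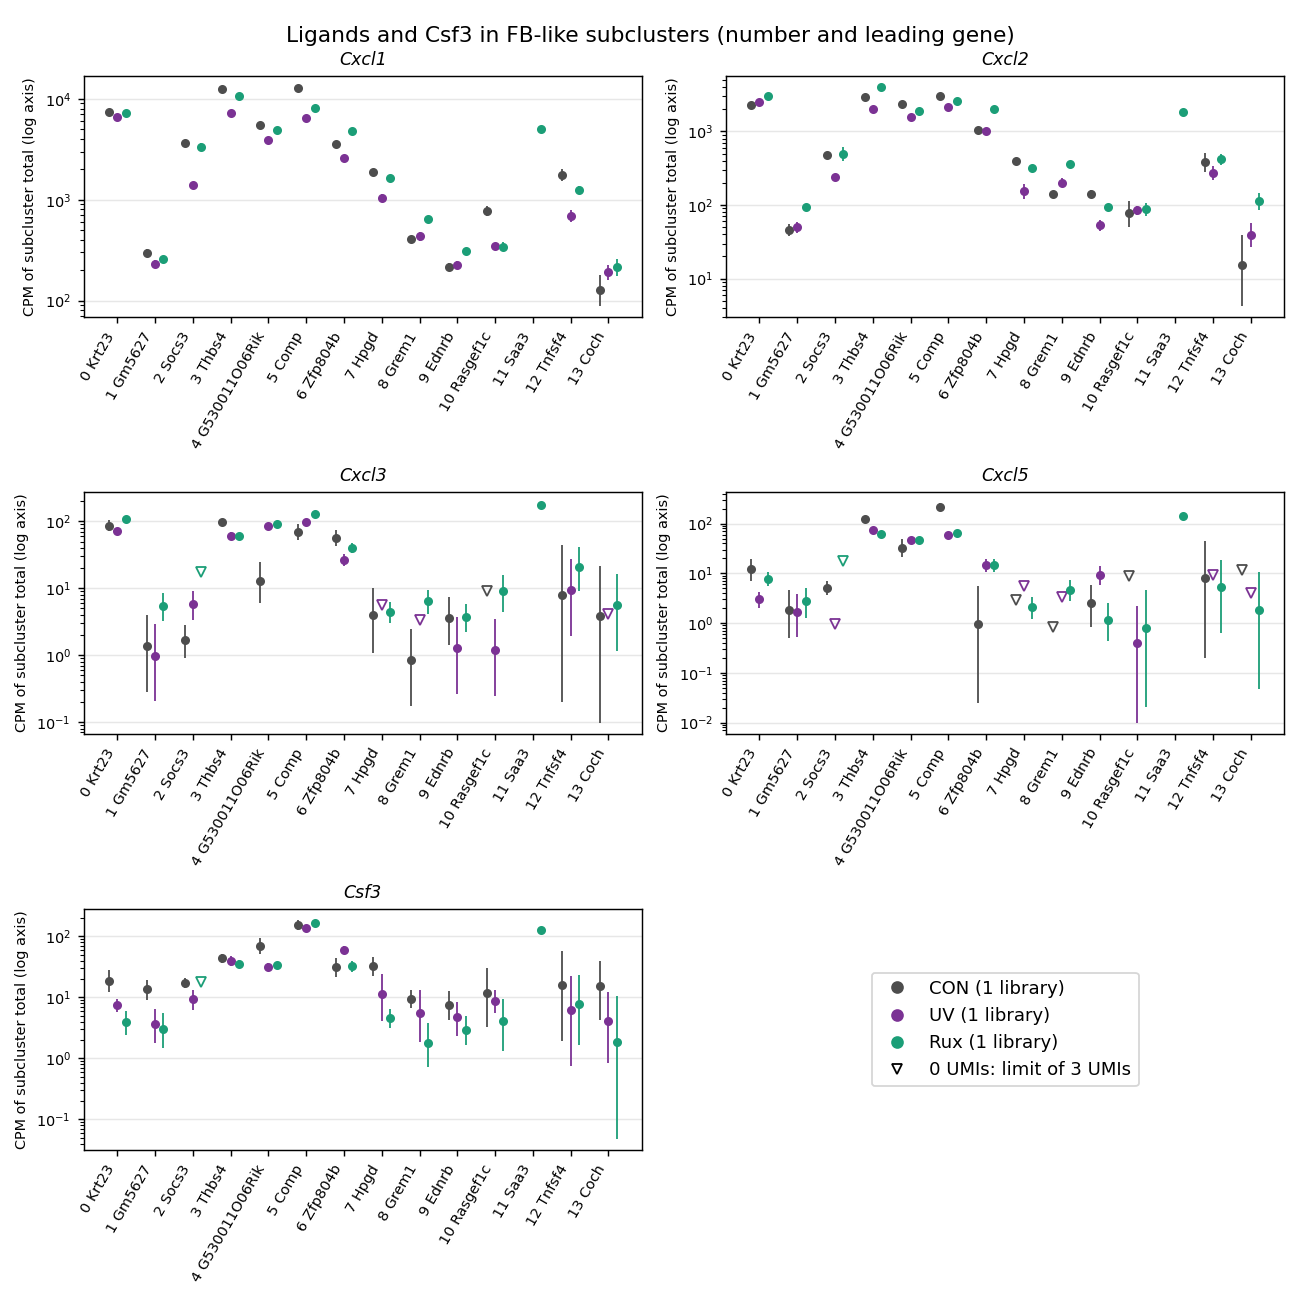
Level of the 4 ligand genes and Csf3 in each FB-like subcluster and library, in CPM on log axes with 95% counting intervals, open triangles at the limit of 3 UMIs where no UMI was found, and points with under 20 cells left out. The subclusters led by Thbs4 and Comp had the highest Cxcl1 in CON, and the subcluster led by Saa3 had the highest Cxcl3 and Cxcl5 in Rux.

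**Figure D4:**
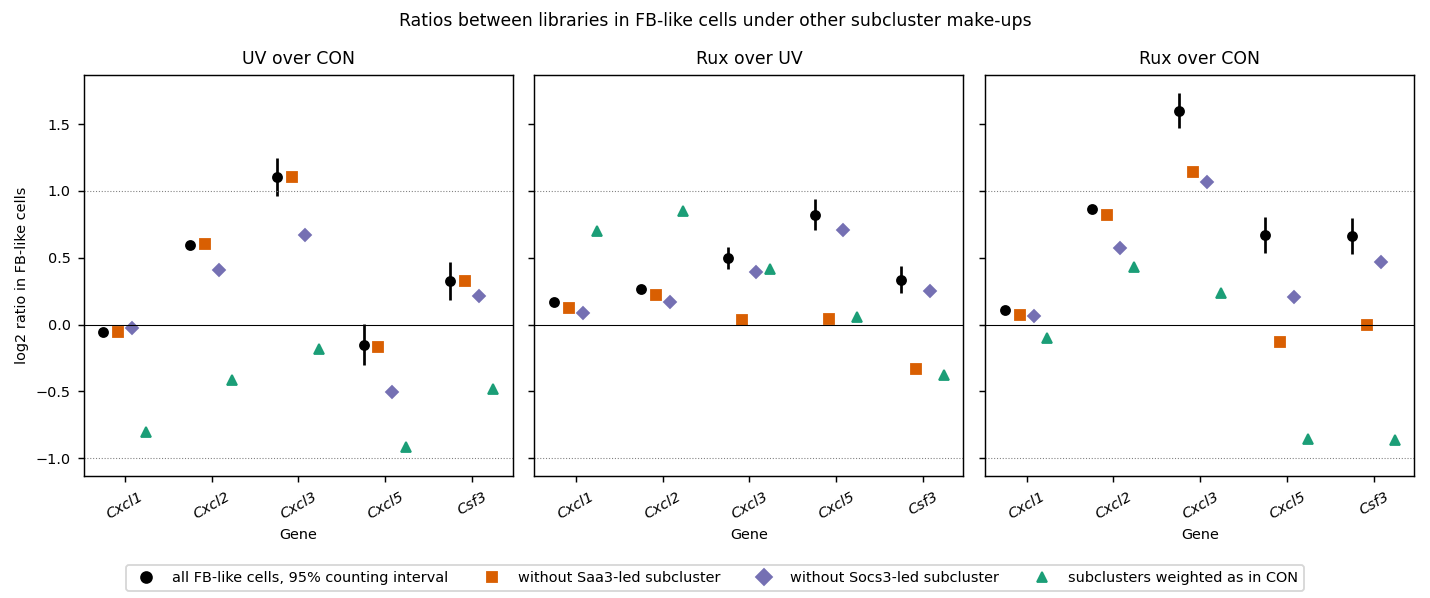
Log2 ratios between libraries in FB-like cells for the 5 member genes averaging 10 CPM or more: black points for all FB-like cells with 95% counting intervals, squares without the subcluster led by Saa3, diamonds without the one led by Socs3, triangles with subclusters weighted as in CON, and dotted lines at 2-fold. All triangles lay below 0 for UV over CON, and the squares of Cxcl3 and Cxcl5 lay at 0.04 for Rux over UV.

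Csf3 had its highest levels in endothelial cells, and there it was lower in both irradiated libraries than in CON. LEC-like cells held 64.9% of its UMIs in CON, 50.2% in UV and 27.8% in Rux, although they were 433, 302 and 144 cells. Their level was 2370 CPM (2332 to 2409) in CON, 1573 (1537 to 1611) in UV and 817 (781 to 855) in Rux. These counting intervals do not cover spread between cells, and most of the UMIs came from few cells, as given below. The dissociation-induced genes in LEC-like cells were also highest in CON, at 18487 CPM against 13853 in UV and 13926 in Rux, and their part in the difference was not tested. The log2 ratio was -0.59 (-0.63 to -0.55) for UV over CON and -0.94 (-1.02 to -0.87) for Rux over UV. The thinned share of LEC-like cells with a Csf3 UMI was 47.4%, 35.2% and 21.3%, and without thinning 53.8%, 44.7% and 26.4%. In LYM-like cells it was 2.71%, 2.29% and 0.712%, at depths of 5405, 4923 and 5100 UMIs against 8375, 8855 and 10096 in LEC-like cells. The top 10% of LEC-like cells held 60.5%, 75.4% and 84.6% of the Csf3 UMIs, a share that tends to rise when fewer cells have a UMI. Cxcl2 in LEC-like cells took another course, at 402, 613 and 211 CPM.

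VEC-like cells stood at 1746, 1191 and 1051 CPM of Csf3 and held 20.1%, 28.4% and 21.2% of its UMIs. Few cells carried these levels: the top 10% of VEC-like cells held 80.4%, 87.1% and 88.4% of the class's Csf3 UMIs. The dissociation-induced genes in VEC-like cells were also highest in CON, at 13674, 12328.5 and 12086 CPM, and their part was not tested. Cluster 14, with Vwf and the venule adhesion genes Sele and Selp among its leading genes, had 1970, 1707 and 1352 CPM. The cluster led by Gpihbp1, a gene of capillaries, had 692, 406 and 334 CPM. The venule-type cluster thus had a higher Csf3 level than the capillary-type cluster in each library, and both had their highest level in CON. FB-like cells, at 24.8, 31.1 and 39.2 CPM, ran in the other direction. Their log2 ratios were 0.32 (0.18 to 0.47) for UV over CON and 0.66 (0.53 to 0.79) for Rux over CON. With subclusters weighted as in CON these turned to -0.48 and -0.86. Those weights left out subcluster 11, which held 45.9% of the FB-like Csf3 UMIs of Rux. For subcluster 2 they used 20 Rux cells with no Csf3 UMI. The unnamed cluster 3, which scored highest for FB markers but was not counted as FB-like, took another order. Its Csf3 stood at 81.7 CPM in CON, 25.7 in UV and 55.6 in Rux, from 144, 32 and 66 UMIs. The FB-like order of CON and UV thus held for the class as named and not for this cluster. FB-like cells held 2.60%, 8.78% and 31.9% of Csf3 UMIs, in Rux the largest share of any class, above the LEC-like and VEC-like shares there. The thinned share of FB-like cells with Csf3 was nonetheless 3.51%, 2.83% and 3.38%, close to the LYM-like share in CON and UV. Among FB-like subclusters the one led by Comp had 155, 136 and 163 CPM. MYE-like cells stood at 67.6, 30.02 and 90.5 CPM, and the Rux over CON log2 ratio of 0.42 there turned to -0.28 without doublet removal. KC-like cells, at 1.31%, 0.913% and 0.809%, did not stand above LYM-like cells beyond their counting intervals.

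The receivers were NEU-like cells. In NEU-like cells Csf3r stood at 943 CPM (783 to 1127) in CON, 764 (522 to 1078) in UV and 788 (725 to 854) in Rux. These came from 121, 32 and 586 UMIs, and the 3 intervals overlapped. Cxcr2 stood there at 413 (310 to 541), 286 (148 to 500) and 298 CPM (260 to 340), from 53, 12 and 222 UMIs. Receptor level per NEU-like UMI therefore did not separate the libraries beyond counting error, except for Cxcr2 in Rux against CON, with a log2 ratio of -0.48 (-0.91 to -0.01). NEU-like cells held 57.1%, 30.8% and 77.8% of the Csf3r UMIs and 44.2%, 31.6% and 86.0% of the Cxcr2 UMIs, the order of their cell numbers. The thinned share with Csf3r was 86.4%, 66.7% and 74.8% of NEU-like cells, and with Cxcr2 34.1%, 41.7% and 37.6%. In FB-like cells, which should lack both, the highest thinned share was 0.0616%. NEU-like cells were shallow, with medians of 2455, 2042 and 3290 UMIs.

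MYE-like cells had Csf3r at 35.4, 27.6 and 32.1 CPM, with 7.45%, 6.61% and 5.94% of thinned cells. Their Csf3r UMIs were 46, 16 and 28 in cluster 20 and 22, 40 and 102 in cluster 21. In UV cluster 21 alone thus held more Csf3r UMIs than the 32 of NEU-like cells. No Cxcr2 UMI was found in 276, 240 and 448 MYE-like cells. A count of 0 with a limit of 3 UMIs allows up to 1.56, 1.48 and 0.740 CPM of Cxcr2 there. In KC-like cells Cxcr2 stood at 0.619, 0.413 and 0.513 CPM, and 19 of the 52 UMIs in CON were in cluster 32, led by the keratin gene Krt77, at 3.07 CPM. The 52, 20 and 20 UMIs of KC-like cells, from 3544, 1782 and 1513 cells with median depths of 17880, 21179 and 20551 UMIs, were 43.3%, 52.6% and 7.75% of all Cxcr2 UMIs.

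Of the other genes of neutrophil traffic, 7 of 24 on a chosen list reached 10 CPM in FB-like cells for UV over CON and 8 for Rux over UV. Csf1, the macrophage growth factor, was 1.34 higher on the log2 scale in UV than in CON (1.31 to 1.37), and Cxcl12, the ligand that retains neutrophils in marrow, was 0.75 higher (0.71 to 0.79). Vcam1 and Icam1, adhesion molecules, were lower in UV than in CON, with log2 ratios of -0.52 and -0.50. Csf2, the granulocyte and macrophage factor, stood at 12.3 CPM in UV and 39.1 in Rux, a log2 ratio of 1.66 (1.52 to 1.81). The list had 1 gene 2-fold higher and none lower in each of these contrasts. Of all genes tested, 2.25% were higher and 2.12% lower for UV over CON, and 0.723% and 1.63% for Rux over UV. List medians were 0.06 and 0.08 against -0.11 and 0.03 over all genes.

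Among 20 genes on a chosen list of inducing and related cytokines, their receptors and adaptors, 10 were counted in FB-like cells. None was 2-fold different between UV and CON, against 2.25% of all genes higher and 2.12% lower. In that contrast the interleukin-1 receptor gene Il1r1 was highest at 0.58 (0.55 to 0.61) and the tumour necrosis factor receptor gene Tnfrsf1a lowest at -0.47. In Rux against UV, Il6 was lowest at -1.25 (-1.27 to -1.23), the interleukin-17 receptor gene Il17ra followed at -0.82 (-0.86 to -0.78) and the adaptor gene Myd88 at -0.64. All but Tnfrsf1a, at 0.01, were below 0 in that contrast, with a median of -0.29 against 0.03 over all genes. The share of all genes below 0 was not counted. Il6 alone was 2-fold lower and none was 2-fold higher, against 1.63% and 0.723% of all genes. Among 16 genes that govern chemokine transcription or mRNA decay, Zfp36, which promotes decay of such mRNAs, was at -1.44 in UV over CON, Cebpd at -1.19 and Tnfaip3, an inhibitor of NF-kB signalling, at -1.14, the 3 genes of that list that were 2-fold lower, against 2.12% of all genes. In the same contrast 9 of the 15 dissociation-induced genes were 2-fold lower, and Zfp36 and Cebpd lead the FB-like subcluster richest in them. The part of dissociation in these values was not tested. Tnfaip3 was 1.45 higher (1.40 to 1.49) and Nfkbia, the NF-kB inhibitor, 0.75 higher (0.73 to 0.77) in Rux than in UV.

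Over 27 points, 9 classes in each of 3 libraries, the genes most like each member in log2(CPM + 1) were named by Pearson r as a description, since points share libraries and classes. Csf3 was closest to Lrg1, Rasip1, Cdh5, Tbkbp1 and Selp, with r from 0.918 to 0.942, of which Cdh5 and Selp encode endothelial adhesion proteins. Cxcl1 was closest to Irak3, an inhibitor of interleukin-1 receptor signalling, Cd302, Enpep, Hebp1 and Ildr2, with r from 0.859 to 0.884. Cxcl2 was closest to Tnfaip2, Gm10134, Cd40, Gm31522 and Ctsz (0.828 to 0.874), Cxcl3 to Dtx4, Snx18, Esd, Apobr and Scpep1 (0.831 to 0.886), and Cxcl5 to Bmp5, Ildr2, Gm48877, Angpt1 and Ccdc170 (0.855 to 0.869). Csf3r was closest to Sirpb1b, Gm6377, Aif1, Cd300ld and Sirpb1a (0.960 to 0.970). Cxcr2 had no close match, with r of 0.763 at most, and NEU-like cells, too few in UV, were not among the points. Between members, r was 0.77 for Cxcl1 with Cxcl2, 0.79 for Cxcl2 with Cxcl3, 0.81 for Cxcl1 with Cxcl5 and 0.18 for Cxcl1 with Csf3.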

How the data were processed

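Full-thickness dorsal skin from 3 conditions was profiled with 10x Genomics 3′ v3.1 chemistry, 1 library each. The deposited matrices hold unnormalised UMI counts, which the authors obtained with Cell Ranger on mm10; the submitters' processing notes give version 6.1.2 and the matrix headers 7.0.0. Filters for cell calling were not given in the sources used here. The authors used Seurat 5.3.0; no cell annotation was used.

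Cells were kept from 200 detected genes upwards and up to 10% of UMIs from mitochondrial genes, and the highest Scrublet scores were removed at 0.8% per 1000 deposited cells (scanpy 1.11.5), 1269, 1128 and 923 cells. Cells were clustered in Seurat 5.3.0 under R 4.3.3 on 2000 variable genes without the member genes, 30 principal components and resolution 1.5, and FB-like cells again on 20 components at resolution 0.5. Clusters were named from marker lists. UMIs were summed per class and library and given as CPM of the class total with exact Poisson intervals; log2 ratios add 0.5 UMI to each sum, with exact Clopper-Pearson intervals of the share. Retained totals were 140959836, 117340092 and 115727559 UMIs. Shares of cells with a UMI were computed after thinning to 2000 UMIs, shallower cells left out. Free RNA was not removed. The ratio step was tested on simulated counts.

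Members and gene lists were chosen with earlier results of these data known. Genes named are the members, from each list the 3 highest and lowest FB-like ratios of UV over CON and Rux over UV (a selection of these is printed), the 5 most similar genes per member, and genes leading a cluster described. Alternatives changed the cell filter, doublet removal, scaling, weighting, gene totals, resolution, thinning and count minimum; 3, leaving out an FB-like subcluster led by Saa3 or by Socs3 and leaving out immunoglobulin-rich MYE-like cells, were added after seeing the data. Positions are from GENCODE M21, in which 32235 of 32285 gene IDs were found, and promoters from RefSeq on GRCm38.p6.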

Additional observations from a re-analysis of the deposited data

How the results depend on the processing

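No paired analysis was possible because each condition had 1 library, and for the same reason no replicate could be left out. Of 898 alternative log2 ratios over 122 combinations of gene, class and contrast with more than 3 UMIs in each library, 856 kept the sign of the reported ratio and 670 stayed within its counting interval. The ratios of at least 2-fold that changed sign were Cxcl3 in FB-like cells, UV over CON, at -0.18 with subclusters weighted as in CON, Cxcl5 in PCY-like cells, Rux over UV, at 0.61 without doublet removal, and Cxcr2 over all cells, Rux over CON, at -0.33 with class shares as in CON, a gene below the level at which members were counted. Among smaller ratios, Cxcl1 in VEC-like cells, UV over CON, was -0.01 in place of 0.43 at resolution 0.8. The cause was not tested.

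Of 168 alternative summary values 126 stayed the same. The count of members 2-fold higher in FB-like cells was 0 in place of 1 for UV over CON with equal weight per cell, with subclusters weighted as in CON and without the subcluster led by Socs3, and 0 in place of 1 for Rux over CON with subclusters weighted as in CON. Over all cells, members 2-fold higher in UV than in CON numbered 2 under median-of-ratios scaling and 0 with equal weight per cell or class shares as in CON. Members 2-fold lower in Rux than in UV numbered 0 without doublet removal, under median-of-ratios scaling, with equal weight per cell and with class shares as in CON; the reported Csf3 ratio stood at the 2-fold limit. Members 2-fold higher in Rux than in CON numbered 2 with equal weight per cell and 1 with class shares as in CON. With a minimum of 10 UMIs, member and list genes 2-fold higher in FB-like cells numbered 4, 9 and 10. These counts are for UV over CON, Rux over UV and Rux over CON. Under median-of-ratios scaling, member and list genes 2-fold lower in UV than in CON numbered 7. The shares of all genes printed above belong to the 10 CPM minimum and the reported scaling, so they are no base for these counts.

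The FB-like share of Cxcl1 UMIs in CON, UV and Rux was 72.5%, 84.7% and 88.8% under the strict filter and 64.2%, 77.2% and 82.9% without doublet removal, and 88.1% in Rux with members among the variable genes. The LEC-like share of Csf3 UMIs was 65.9% in CON and 51.4% in UV under the strict filter, and 61.7%, 47.9% and 26.1% without doublet removal. FB-like cells with Cxcl1 were 82.7%, 85.2% and 91.9% without thinning and 61.7%, 62.4% and 67.0% at 1000 UMIs. LEC-like cells with Csf3 were 53.8% in CON and 44.7% in UV without thinning and 41.0%, 26.0% and 14.7% at 1000 UMIs. FB-like subclusters with higher Cxcl1 in UV than in CON were 11.1% at resolution 0.3 and 10.0% at resolution 0.8. Depth limits Cxcr2 and Csf3r, with 12 and 32 UMIs in NEU-like cells of UV.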

Other observations

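Cytokine genes on the chosen list of inducing and related cytokines had different main sources. FB-like cells, which held most Cxcl1, also held most Il6, with 25075 of 39390 UMIs in CON, 44195 of 56841 in UV and 26342 of 31074 in Rux, at 1056, 1118 and 470 CPM. Il1b, a strong inducer of these genes, stood at 3077 CPM in CON, 2237 in UV and 5819 in Rux MYE-like cells and at 7228, 6754 and 6841 CPM in NEU-like cells, and over all cells at 52.6, 44.2 and 255 CPM. Il1a in MYE-like cells stood at 94.6, 77.3 and 260 CPM. Il17a, the T cell cytokine that induces Cxcl1 and Csf3 in stroma, was found almost only in LYM-like cells, which held 499 of 514 UMIs in CON, 262 of 269 in UV and 96 of 97 in Rux. Its level there was 363, 252 and 58.0 CPM. The cluster mix of LYM-like cells differed between libraries, and its part in this level was not tested. Il17ra in LEC-like cells stood at 228, 163 and 84.0 CPM. In FB-like cells it stood at 293, 307 and 174 CPM and in VEC-like cells at 19.9, 27.6 and 7.93 CPM, highest in UV in both. Il17rc, also an interleukin-17 receptor gene, stood at 10.8, 10.1 and 6.40 CPM in LEC-like cells. A link of these values to Csf3 was not tested.

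Other CXCR2 ligand genes were nearly absent, with Ppbp at 7, 16 and 5 UMIs and Cxcl15 at 3, 1 and 2 UMIs over all cells. The related receptor gene Cxcr1 had 0, 0 and 7 UMIs. Ackr1, the atypical receptor that carries chemokines across venules, stood at 384, 238 and 303 CPM in VEC-like cells and at 70.4, 56.7 and 39.2 CPM in FB-like cells. The rolling receptor gene Selp stood at 3257, 1838 and 1853 CPM in VEC-like cells, Sele at 1150, 684 and 1066 CPM, and Icam1, by contrast, at 1083, 1238 and 2112 CPM. Fpr1, a receptor for bacterial peptides on neutrophils, stood at 460, 453 and 895 CPM in NEU-like cells.

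Cluster 29, led by Rgs5, Abcc9 and Higd1b, had close scores for VEC and PCY markers and stayed unnamed. Its 75, 177 and 62 cells had Csf3 at 1872, 588 and 711 CPM and Cxcl1 at 3649, 2144 and 3623 CPM.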
